A study of Mus musculus with 6 samples.

Results

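Diap1, the mouse gene for the formin mDia1 (current symbol Diaph1), was compared between lineage-depleted (Lin-) bone marrow progenitors of KO mice (Diap1 -/-) and of Het mice (Diap1 +/-). The genes described are the gene loci whose deposited status was OK in both Lin- libraries. Loci whose level in WT Gr1+Mac1+ cells exceeded that in WT Lin- cells by 2 or more on the log2(FPKM + 1) scale were left out. This kept 22346 of 23746 loci: 1102 were left out by the fraction limit, and 298 did not have the status OK in both libraries. The genes were thus chosen by the levels in the 2 WT libraries, and of the KO and Het libraries only the status played a part. Of the kept loci, 10193 had a mean FPKM of at least 1 over the KO and Het libraries and are called measured genes, and 7073 were at 0 in both.

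Formins nucleate and elongate unbranched actin filaments, and mDia1 is held shut by contact between its own ends until it is activated. By drawing on the pool of actin monomers, formins also free MRTF coactivators to act with the transcription factor SRF on cytoskeletal genes. Lin- marrow holds stem cells and the precursors of every blood lineage, among them megakaryocytes, the large cells that fill granules with platelet proteins and shed platelets into the blood. In humans, DIAPH1 is one of the genes of inherited platelet disorders with hearing loss.

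All mice were C57BL/6 and 12 weeks old, and the KO, Het and WT groups were each a pool of marrow from 4 mice. Cells bearing both Gr1 and Mac1, surface proteins of granulocytes and monocytes, were first taken out with magnetic beads, and progenitors were then enriched from what was left by negative selection. Total RNA of both fractions was sequenced, which gave 1 library for each of 3 genotypes in each of 2 fractions and no replicates. The labels name neither the deleted part of Diap1 nor whether it was lost in all tissues. Every difference given here is one between libraries, with no test, and the intervals and standard errors (SE) cover the counting of fragments but not the spread between mice.

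FPKM counts fragments relative to the length of the transcript and the size of the library, so that levels can be compared between genes. The widths of the deposited intervals implied 9430000 fragments in the KO Lin- library, 10020000 in Het and 10390000 in WT. In the Lin- libraries 10795 to 11094 loci reached an FPKM of 1. Defining progenitor genes were present in each Lin- library: Kit, the stem cell factor receptor, stood at 84.7 FPKM in KO, 66.4 in Het and 72.6 in WT, and the erythroid factor Gata1 at 124, 124 and 122 FPKM in the same order. The female-specific RNA Xist was at 38.7 FPKM in KO, 34.9 in Het and 54.2 in WT. The Y-linked Eif2s3y was at 17.96, 17.6 and 9.05 FPKM in the same order, so KO and Het were closer to each other than to WT in both.

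The Het Lin- library differed from the other Lin- libraries in transcripts of the Gr1+Mac1+ fraction. Ngp, a protein of neutrophil granules, had 5.56 FPKM in KO, 845 in Het and 4.07 in WT Lin- cells. A comparison was made over 173 genes at least 16-fold higher in WT Gr1+Mac1+ than in WT Lin- cells. Each had at least 50 FPKM in WT Gr1+Mac1+ cells and the status OK in the KO and Het libraries of both fractions. Over these genes the excess of the Het Lin- library over WT Lin- was a median 5.49% of the level in Het Gr1+Mac1+ cells. The interquartile range was 4.97% to 6.20%. The same share was 0.183% in KO over 172 genes (interquartile range -0.0221% to 0.760%). The fraction limit removed the genes with the steepest gradient. Results are also given after 5.49% of the Het Gr1+Mac1+ profile was subtracted from the Het Lin- library. The remainder was then scaled up to make good the share removed, which raises the Het level of genes low in Gr1+Mac1+ cells. Results with WT Lin- in place of Het Lin- are given too. In bulk RNA such as this, fewer cells of a type and less RNA per cell cannot be told apart.

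Diap1 itself was the member with the lowest log2 ratio among named genes with signal in both libraries. It lies on chromosome 18, 37844825 to 37935411 (mm10). Its level was 6.07 FPKM in KO (95% interval as deposited 5.38 to 6.75), 24.2 in Het (interval 22.9 to 25.6) and 36.0 in WT (interval 34.4 to 37.6). KO therefore held 25.04% of the Het level, a log2 ratio of FPKM + 1 of -1.84 (SE 0.08), and no interval overlapped another. In Gr1+Mac1+ cells the levels were 4.07 FPKM in KO, 34.1 in Het and 57.1 in WT.

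Of 6 measured formins, Diap1 was the only one past the rule of size defined below, although all 6 had log2 ratios below 0 (median -0.26). Fhod1, a formin of stress fibres, had 4.997 FPKM in KO, 6.83 in Het and 5.43 in WT. Inf2, which also severs filaments, had 7.19, 8.87 and 7.92 FPKM in that order. Daam1, a formin linked to Wnt signalling, had 18.4, 22 and 20.2 FPKM, and its relative Daam2 1.01, 1.22 and 0.981. Diap3, the mDia2 gene used in cytokinesis, was level at 20.3, 20.6 and 19.7 FPKM. No measured formin was higher in KO than in Het, and the KO and Het intervals of Diap3 and Daam2 overlapped. The fraction limit had left out 4 formins.

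Across the 10193 measured genes the KO and Het Lin- libraries were close. The median log2 ratio was 0.01, the 5th and 95th percentiles were -0.29 and 0.28, and 52.7% of the genes were above 0. A gene was called higher or lower when FPKM + 1 differed by a factor of 2 or more, the higher library reached an FPKM of 5 and the deposited intervals did not overlap. By this rule of size 4 genes rose in KO (0.0392%) and 15 fell (0.147%). Counting every gene with intervals apart gave 386 higher (3.79%) and 408 lower (4%). Intervals narrow as levels rise, and the median mean level of KO and Het was 13.9 FPKM over all measured genes. The 15 that fell were Diap1, 6 genes of the megakaryocyte and platelet list, 6 other protein-coding genes and 2 small nucleolar RNA genes.

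**Figure D1:**
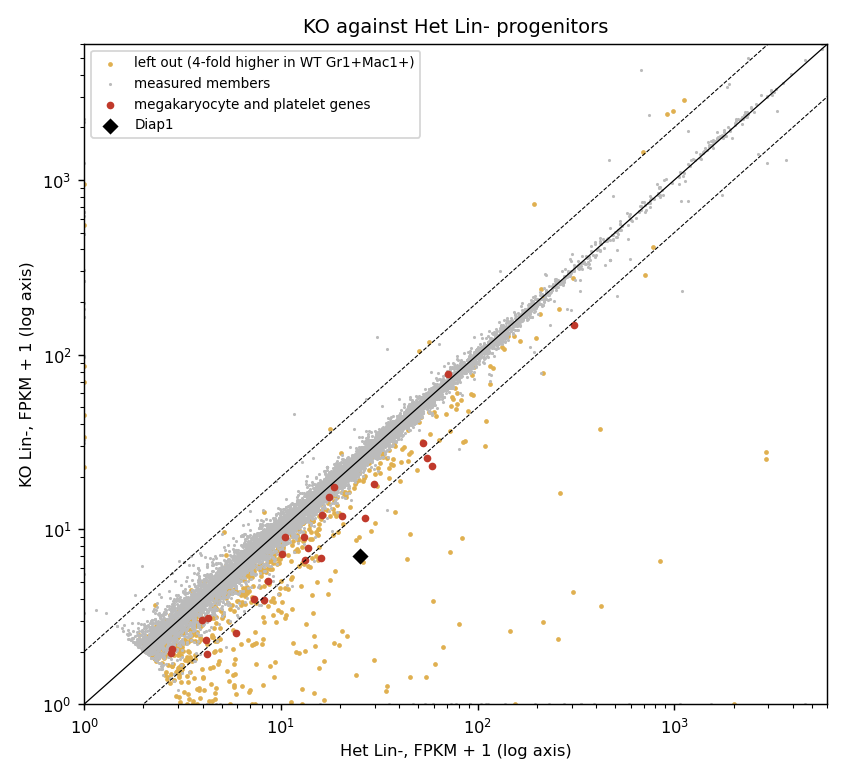
Level of each gene with a mean FPKM of at least 1, as FPKM + 1 on log axes, in the KO Lin- library (vertical) against the Het Lin- library (horizontal). Grey points are the measured genes, red points the megakaryocyte and platelet genes, the black diamond Diap1 and yellow points the genes left out for being at least 4-fold higher in WT Gr1+Mac1+ cells. The solid line marks equality and the dashed lines 2-fold, 5 genes of higher level lie outside the frame, and 26 of 27 red points lie below the line of equality.

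Megakaryocyte and platelet genes were lower as a group in KO than in Het progenitors. Of 34 genes on the list, 29 were kept by the fraction limit and 27 were measured: 6 fell, none rose, and 26 had a log2 ratio below 0. The median log2 ratio was -0.76, against 0.01 over all measured genes, and KO and Het intervals were apart for 20 genes in the lower direction and 1 in the higher (4% and 3.79% of all measured genes), at a median level of 9.74 FPKM. The list was drawn up with earlier results of these data known, and its direction is a description of these libraries.

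Among granule proteins, 4 of 7 fell and the median log2 ratio was -1.06. Ppbp, the precursor of the neutrophil-attracting chemokine that platelets release (chromosome 5, 90768518 to 90770060), had 21.9 FPKM in KO (interval 19.1 to 24.7), 57.8 in Het (53.4 to 62.3) and 29.0 in WT (25.9 to 32.1). Pf4, platelet factor 4 (chromosome 5, 90772435 to 90773383), was the most abundant gene of the list, at 147 FPKM in KO (136 to 158), 308 in Het (292 to 323) and 232 in WT (219 to 246). For both genes all intervals were apart, with KO lowest, WT between and Het highest. The log2 ratio of KO over Het was -1.36 (SE 0.11) for Ppbp and -1.06 (SE 0.07) for Pf4.

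Treml1, a receptor stored in alpha granules (chromosome 17, 48359916 to 48367146), was at 5.87 FPKM in KO, 15.05 in Het and 10.5 in WT (log2 ratio -1.22, SE 0.17). Mmrn1, the factor V binding protein multimerin (chromosome 6, 60944317 to 60989378), was at 2.95, 7.23 and 4.94 FPKM in the same order (-1.06, SE 0.12). Vwf, the adhesive ligand for platelets on collagen, had 11.0 FPKM in KO, 19.4 in Het and 15.4 in WT, short of 2-fold at -0.76. Pdgfb, a growth factor subunit, and Selp, the adhesion molecule P-selectin, were low in all Lin- libraries, at most 1.76 and 2.99 FPKM. WT lay between KO and Het for all 7 granule protein genes.

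Promoters of genes that fell are shown because Ppbp and Pf4 are neighbours and moved together, and because the GATA and ETS families include the factors that drive megakaryocyte genes. Each runs from 250 bases before to 50 bases after the transcript start, from RefSeq on GRCm38.p6, all on the plus strand, at chr5:90768268-90768567 for Ppbp, chr5:90772185-90772484 for Pf4 and chr6:60944067-60944366 for Mmrn1. Capitals mark matches on either strand. The GATA letters searched were AGATAA and its variants beginning with T (TGATAA), ending with G (AGATAG) or changed at both ends (TGATAG), and the ETS letters were AGGAAG and the variant beginning with C (CGGAAG).
Ppbp: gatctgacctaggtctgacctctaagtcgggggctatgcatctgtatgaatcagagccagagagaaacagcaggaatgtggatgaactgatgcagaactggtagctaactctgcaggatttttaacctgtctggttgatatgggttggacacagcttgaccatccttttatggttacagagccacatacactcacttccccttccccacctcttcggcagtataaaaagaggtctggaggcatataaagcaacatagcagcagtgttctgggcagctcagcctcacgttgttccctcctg
Pf4: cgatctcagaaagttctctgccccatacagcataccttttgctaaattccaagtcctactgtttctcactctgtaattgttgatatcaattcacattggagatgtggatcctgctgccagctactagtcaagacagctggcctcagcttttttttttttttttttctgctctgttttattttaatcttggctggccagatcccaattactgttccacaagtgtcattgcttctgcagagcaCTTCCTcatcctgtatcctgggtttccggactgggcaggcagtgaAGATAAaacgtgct
Mmrn1: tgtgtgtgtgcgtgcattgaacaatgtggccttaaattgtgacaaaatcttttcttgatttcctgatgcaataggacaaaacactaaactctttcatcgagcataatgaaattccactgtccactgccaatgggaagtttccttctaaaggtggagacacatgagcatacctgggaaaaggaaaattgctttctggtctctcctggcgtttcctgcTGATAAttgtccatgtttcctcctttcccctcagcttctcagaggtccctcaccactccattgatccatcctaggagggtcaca
The Pf4 window held 1 GATA and 1 ETS match, the Mmrn1 window 1 GATA match and the Ppbp window neither. Of the 6 megakaryocyte genes that fell, 5 had a promoter in the table, and 2 of these held GATA letters and 2 ETS letters. Among the promoters of 9102 measured genes 18.7% held GATA letters and 55.6% ETS letters, and among all 32817 promoters 29.8% and 46.5% did. A match is a description of letters and not a site.

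Among adhesion receptors, 2 of 9 fell and the median log2 ratio was -0.87. Itgb3, the beta 3 subunit of the fibrinogen receptor (chromosome 11, 104608000 to 104670471), had 10.6 FPKM in KO, 25.7 in Het and 17.3 in WT, a log2 ratio of -1.20 (SE 0.06). Its partner Itga2b, the alpha IIb subunit, had 30.4, 51.5 and 43.1 FPKM in the same order (-0.74). Cd9, a tetraspanin of platelets and of many other cells (chromosome 6, 125460266 to 125494755), had 24.6 FPKM in KO, 54.4 in Het and 38.4 in WT (-1.12, SE 0.10). For all 3 of these genes the intervals of KO, Het and WT were apart, with WT between.

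The subunits of the von Willebrand factor receptor had log2 ratios from -1.20 to -0.20. Gp1bb had 1.56 FPKM in KO, 4.87 in Het and 2.27 in WT (-1.20), past 2-fold but under the level of 5 FPKM. Gp1ba had 6.80, 12.7 and 9.14 FPKM in the same order (-0.81), Gp9 11.2, 15.1 and 9.44 (-0.41), and Gp5 14.3, 16.5 and 15.6 (-0.20). The KO and Het intervals were apart for Gp1bb and Gp1ba and overlapped for Gp9 and Gp5. Gp6, the collagen receptor, was below the level limit too, at 0.936 FPKM in KO, 3.22 in Het and 0.930 in WT, so that KO and WT were alike there. Clec1b, the podoplanin receptor, had 3.01, 6.29 and 3.54 FPKM in the same order.

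None of the 5 agonist and growth factor receptors passed, and all 5 were below 0. F2rl2, a thrombin receptor cofactor, came closest, at 5.71 FPKM in KO, 12.3 in Het and 7.31 in WT (-0.98, SE 0.12). The ATP-gated channel P2rx1 had 4.07, 7.59 and 5.39 FPKM in the same order (-0.76). The thrombin receptor F2r and the ADP receptor P2ry1 had KO and Het intervals that overlapped, with log2 ratios of -0.08 and -0.20.

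None of the 6 genes whose products work inside the cell passed either, with a median of -0.47. Plek, the protein kinase C substrate pleckstrin, had 17.2 FPKM in KO, 28.6 in Het and 19.8 in WT (-0.70). Tubb1, the platelet tubulin, had 1.34, 3.18 and 2.02 FPKM in the same order (-0.84). Zfpm1, the GATA cofactor FOG1 that erythroid cells use as well, was the 1 gene of the list above 0, at 76.5 FPKM in KO, 69.8 in Het and 65.3 in WT (0.13). Tbxas1, Rab27b and Alox12 lay between -0.48 and -0.43.

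**Figure D2:**
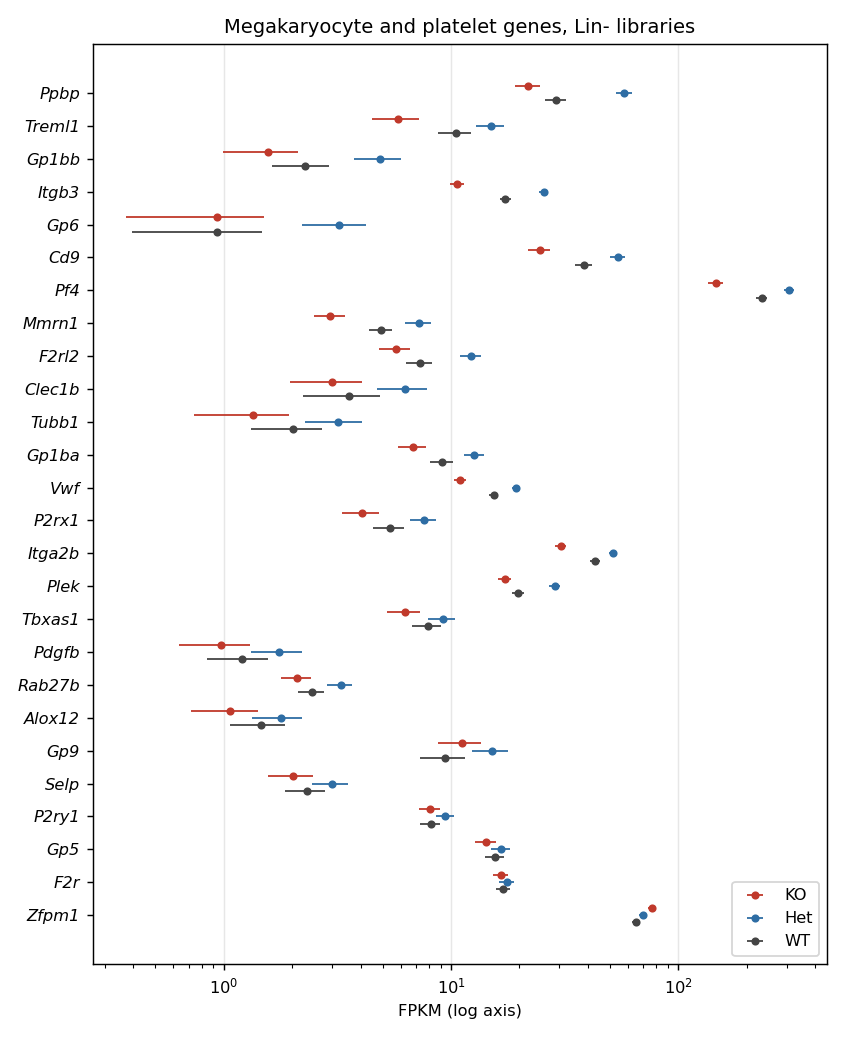
FPKM (log axis) of 26 of the 27 measured megakaryocyte and platelet genes in the KO (red), Het (blue) and WT (grey) Lin- libraries, ordered by the log2 ratio of KO over Het. Points are the deposited values and bars the deposited 95% intervals, which cover counting error only. Red lies left of blue for every gene shown except Zfpm1, and grey lies between them for every gene shown except Gp6, Gp9 and Zfpm1.

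WT Lin- lay between KO and Het for 24 of the 27 genes, against 30.2% of all measured genes. Such shares depend on the gap between KO and Het, which was larger on this list than over all measured genes. Of all 19 genes past the rule of size, WT lay between for 18, so this order is not particular to the platelet genes. Het was above WT for all 27 genes of the list and KO below WT for 24, against 4778 and 5117 of 10193 measured genes. The median log2 ratio of the list was -0.29 for KO over WT and 0.43 for Het over WT, contrasts that share libraries with each other and with KO over Het. No gene of the list passed the rule of size in either, where the rule called 0.0687% of the measured genes higher and 0.0196% lower in KO than in WT, and 0.0785% higher and 0.0491% lower in Het than in WT. The WT interval overlapped neither of the others for 10 genes (5.6% of all measured genes), that of KO alone for 7 (5.31%), that of Het alone for 1 (7.76%) and both for 9 (81.3%).

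The summed level of the 27 platelet genes was 442 FPKM in KO, 777 in Het and 581 in WT Lin- cells, while in Gr1+Mac1+ cells the sums were 324, 332 and 327 FPKM in the same order. The median log2 ratio of KO over Het was -0.12 in Gr1+Mac1+ cells, and no gene of the list passed there. Of the 27 genes 18 were below 0 in that fraction, against 5085 of 10193 measured genes. Among all measured genes the rule called 4 higher (0.0393%) and 6 lower (0.0589%) in that fraction. Cd9 was more abundant in Gr1+Mac1+ than in Lin- cells, at 157 FPKM in KO, 148 in Het and 149 in WT. So were Plek, P2rx1 and Tbxas1, at 57.3, 16.4 and 15.9 FPKM in WT Gr1+Mac1+ against 19.8, 5.39 and 7.91 in WT Lin- cells. The part of the granulocyte share in the Het Lin- values of Plek, P2rx1 and Tbxas1 was not tested. After the granulocyte share was subtracted the list median was -0.80, 7 of its genes were lower by the rule and Cd9 was not among them (log2 ratio -0.97). Subtraction alone can only lower a Het level, so the larger difference comes from scaling up the remainder. That step took Het Pf4, for instance, from 308 to 324 FPKM. With WT Lin- in place of Het Lin-, no gene of the list was lower by the rule. Summed genes of the stromal, osteoblast and endothelial list were also highest in Het, at 718 FPKM in KO, 1041 in Het and 629 in WT Lin- cells, and their part in the result was not tested.

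**Figure D3:**
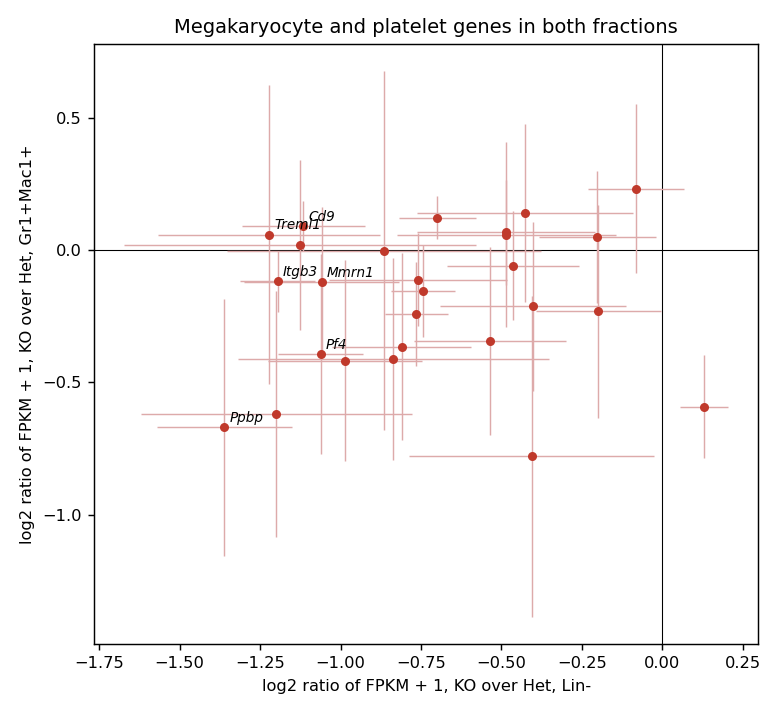
Log2 ratio of FPKM + 1, KO over Het, of the 27 megakaryocyte and platelet genes in Lin- cells (horizontal) and in Gr1+Mac1+ cells (vertical), with bars of 2 counting SE each way. The 6 labelled genes, which fell in Lin- cells, lie between -1.36 and -1.06 there and between -0.67 and 0.09 in Gr1+Mac1+ cells.

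The 5 platelet genes that the fraction limit left out were Thbs1, F5, F13a1, Fli1 and Nbeal2. Thbs1, the granule protein thrombospondin, had 2.45 FPKM in KO, 8.64 in Het and 2.73 in WT Lin- cells. F5, coagulation factor V, had 1.67, 4.69 and 2.06 FPKM in the same order. Both are at least 4-fold higher in WT Gr1+Mac1+ cells, and the part of the granulocyte share in their Het values was not tested. Fli1, an ETS factor, was level at 7.30 FPKM in KO, 7.64 in Het and 6.96 in WT.

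Outside the list, 6 named protein-coding genes fell besides Diap1. Clu, the secreted chaperone clusterin, had 3.72 FPKM in KO, 10.4 in Het and 5.59 in WT (-1.27, SE 0.16). Timp3, a matrix-bound inhibitor of metalloproteinases, had 3.82, 9.77 and 5.61 FPKM in the same order (-1.16, SE 0.10). Mrvi1, a substrate of cGMP-dependent kinase in smooth muscle and platelets, had 2.68, 6.94 and 4.36 FPKM (-1.11, SE 0.10). All 3 were lowest in KO and highest in Het, with WT between. Their levels in Gr1+Mac1+ cells were at most 1.14 FPKM in any library.

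Ppic, a cyclophilin, had 3.28 FPKM in KO, 8.62 in Het and 5.09 in WT (-1.17, SE 0.20). Acn9, a mitochondrial assembly factor, had 5.59, 13.7 and 11.3 FPKM in the same order, and there the WT interval overlapped that of Het and not that of KO. Nupr1, a stress-induced chromatin protein, had 2.68, 6.70 and 2.96 FPKM (SE of the log2 ratio 0.35). Its KO and WT intervals overlapped and it was no longer past 2-fold after the granulocyte share was subtracted (log2 ratio -0.93). WT lay between KO and Het for 12 of the 13 named genes that fell, Diap1 being the exception.

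The genes nearest the limits were as follows. On the lower side of the 2-fold limit, Mmrn1, Pf4 and Nupr1 were just inside and F2rl2, Ehd3 and Rbpms2 just outside. Ehd3, an endosomal ATPase, had 3.79 FPKM in KO, 8.43 in Het and 6.08 in WT (-0.98), and the RNA-binding protein gene Rbpms2 2.16, 5.06 and 2.60 (-0.94). At the limit between the WT fractions, Rab5b, Pitpnm1 and Adap1 were just inside, with KO over Het log2 ratios of -0.10, -0.35 and -0.28. Slc9a3r1, E2f2 and Trim12a were just outside, at -0.21, 0.04 and 0.07.

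In the other direction 4 genes rose, and 2 of them were small RNA genes. The other 2, BC064078 and Gm15471, are unnamed symbols given here after their values were seen. BC064078 had 5.58 FPKM in KO, 2.04 in Het and 2.89 in WT (1.11, SE 0.30). Gm15471, a gene model, had 6.01, 2.49 and 2.91 FPKM in the same order (1.01, SE 0.36). The WT intervals of both overlapped those of KO and Het. The small RNA genes, outside the rule for names, are given after their values were seen. Snora30 had 197 FPKM in KO and was listed at 0 in Het, with 29.9 in WT, and Mir680-2 had 650.4 FPKM in KO, was listed at 0 in Het and had 237 in WT. Snord32a ran the other way, listed at 0 in KO with 584 FPKM in Het and 225 in WT. Such short transcripts rest on few fragments, and their values are uncertain.

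The named genes just short of 2-fold in the higher direction were Dntt, Rsc1a1 and Fbxo36. Dntt, the terminal transferase of early lymphoid cells, had 23.2 FPKM in KO (interval 20.4 to 25.9), 11.7 in Het (9.81 to 13.6) and 12.7 in WT (10.8 to 14.7). The KO interval was apart from both others, which overlapped each other (log2 ratio KO over Het 0.93, SE 0.14). In Gr1+Mac1+ cells Dntt had 5.90 FPKM in KO, 9.36 in Het and 8.73 in WT, the opposite order. Rsc1a1, a regulator of sugar transport, had 11.7, 5.99 and 10.6 FPKM in Lin- cells, and the F-box gene Fbxo36 5.21, 2.42 and 4.01.

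Stem and progenitor genes were mostly above 0, by less than the rule of size. Of 30 measured, none passed, 23 were above 0 and the median log2 ratio was 0.13, against 0.01 over all measured genes. The most abundant were Lmo2, a bridging factor of blood transcription complexes, at 205 FPKM in KO, 186 in Het and 186 in WT, and Myb, a factor of proliferating progenitors, at 135, 114 and 117. KO and Het intervals were apart for 9 genes in the higher direction and 2 in the lower, against 3.79% and 4% of all measured genes, at a median level of 11.5 FPKM. Among those with intervals apart, picked after their values were seen, Flt3, the cytokine receptor of lymphoid-primed progenitors, had 11.9 FPKM in KO, 7.11 in Het and 7.85 in WT (0.67, SE 0.09). Cd34, a surface sialomucin, had 24.98, 18.6 and 22.2 FPKM in the same order, and Sox4, a factor of early B cells, 6.66, 4.198 and 4.65. For Flt3 and Sox4 the WT interval overlapped that of Het and not that of KO.

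Genes of other immune cells gave no passing member among those the fraction limit kept. The dendritic cell and MHC class II list had 9 measured genes, 7 of them above 0, with a median of 0.30. Its most abundant genes were Bst2, the antiviral protein tetherin, at 43.6 FPKM in KO, 45.4 in Het and 45.0 in WT, and H2-DMa, which loads peptide on class II, at 32.4, 26.1 and 24.2. The fraction limit had left out 15 genes of that list, of which 10 had a mean FPKM of at least 1. Of these 10 genes 3 were lower by the rule and the median was -0.44, and with no gene left out the list's median was 0.03. Of 15 measured T and NK cell genes 12 were below 0, with a median of -0.07. That list stood further from WT, with a median of -0.57 for KO over WT and -0.28 for Het over WT, at a median level of 2.44 FPKM. Lat, the T cell adaptor, had 9.47 FPKM in KO, 13.7 in Het and 15.1 in WT, and Cd27, a receptor also found on progenitors, 10.3, 6.93 and 9.54. Gzmb, the protease granzyme B, was past 2-fold (1.20) but below the level limit, at 3.19 FPKM in KO, 0.820 in Het and 1.21 in WT.

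Genes of bone and stroma were mostly below 0, by less than the rule of size. Of 26 measured genes of the stromal, osteoblast and endothelial list none passed, 17 were below 0 and the median log2 ratio was -0.18, with intervals apart for 10 in the lower and 2 in the higher direction (4% and 3.79% of all measured genes). The genes given after the type I collagens were picked after their values were seen. Col1a1, a chain of type I collagen, had 180.3 FPKM in KO, 296 in Het and 139 in WT (-0.71, SE 0.02). Col1a2, the other chain, had 147, 234 and 118 FPKM in the same order. In both chains KO was between Het and WT, unlike the order of the platelet genes. Sparc and Bglap, proteins of bone matrix, had 69.3 and 75.9 FPKM in KO, 114 and 116 in Het, and 60.7 and 75.02 in WT. Cxcl12, the chemokine that holds progenitors in marrow, ran the other way at 4.25, 2.85 and 2.69 FPKM. The list's median was 0.31 for Het over WT and 0.11 for KO over WT, so the sign for KO turned when WT took the place of Het.

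**Figure D4:**
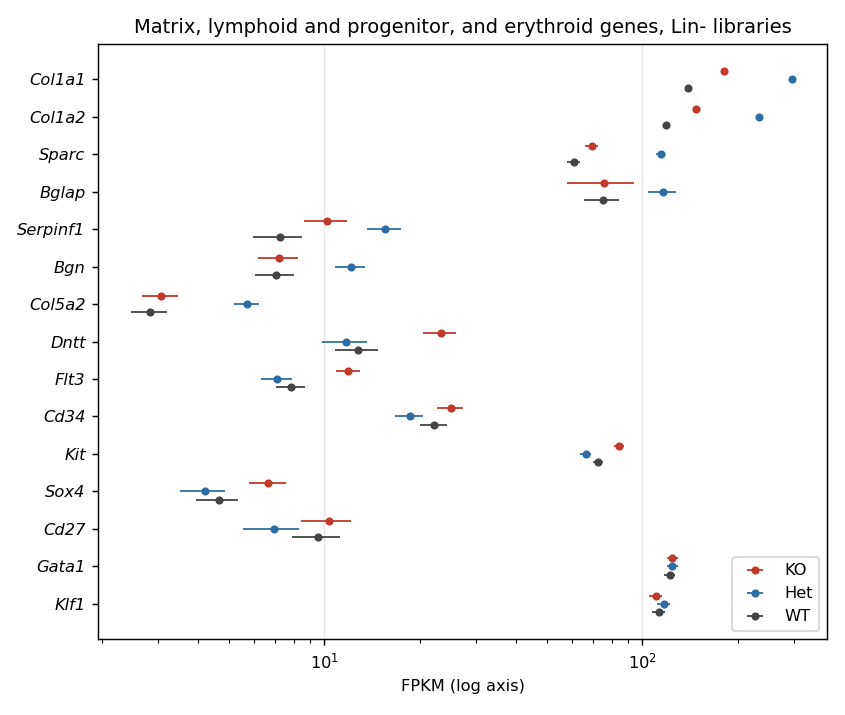
FPKM (log axis) of 15 genes of the stromal, lymphoid, progenitor and erythroid lists in the KO (red), Het (blue) and WT (grey) Lin- libraries, with the deposited 95% intervals as bars. The genes were picked after their values were seen. Col1a1 to Col5a2 are highest in Het, Dntt to Cd27 are highest in KO, and Gata1 and Klf1 are nearly level.

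Erythroid genes gave no passing member among those the fraction limit kept. Of 22 measured erythroid transcription factors and receptors none passed, 17 were above 0 and the median was 0.10, with KO and Het intervals apart for 8 in the higher and 1 in the lower direction, against 3.79% and 4% of all measured genes. Gata1 was level, and Klf1, the globin gene activator, had 110.3 FPKM in KO, 117 in Het and 113 in WT. Ldb1, which bridges GATA1 complexes, had 198, 188 and 191 FPKM in the same order. The 27 genes of heme synthesis and iron handling had a median of -0.01, with the ferritin chain Fth1 at 1530.4 FPKM in KO, 1565 in Het and 1539 in WT. The 25 genes of the red cell membrane and skeleton list had a median of 0.04. Its most abundant were the carbonic anhydrases Car1 at 1522, 1423 and 1445 FPKM and Car2 at 1448, 1282 and 1336. Both are soluble enzymes and not parts of the membrane or skeleton. The difference between these medians and the -0.76 of the megakaryocyte list was not tested.

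Globin genes are a separate case, since the fraction limit left out 7 of 12 loci on the list and only 2 of the 5 kept were measured. Among the 802 left-out genes with a mean FPKM of at least 1 the rule called 6 higher (0.748%) and 112 lower (14%), and 88.2% were below 0. The 6 higher loci, counted as deposited entries, were Hbb-b1, Hbb-b2, Beta-s, both loci of Hba-a1, and Alas2, the enzyme that starts heme synthesis in red cells. The entries of Hbb-b1 (chromosome 7, 103812528 to 103813923) and Hbb-b2 (103812524 to 103813903) overlap almost fully and are not separate places. In Gr1+Mac1+ cells their KO over Het log2 ratios were -0.67 and 2.20. Hbb-b1 had 1449 FPKM in KO, 693 in Het and 703 in WT Lin- cells, and Alas2 had 36.4, 16.8 and 18.7 in the same order. Beta-s, a beta globin locus, had 2377 FPKM in KO, 914 in Het and 1041 in WT. KO stood above both others for these 3 genes. The 2 loci of Hba-a2, another alpha globin gene, ran the other way without passing, at log2 ratios of -0.45 and -0.52. Globin copies share sequence, so the split between them is uncertain, and the Gr1+Mac1+ fraction held more RNA of the 6 loci, for instance 90.3 FPKM of Alas2 in KO, 94.5 in Het and 124 in WT.

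The 112 lower left-out genes include the granule proteins of neutrophils. Of 30 measured secondary and tertiary granule protein genes 23 were lower, with a median of -3.46, and of 26 mature neutrophil genes 14 were lower, with a median of -1.63. S100a8, a calcium-binding protein of neutrophils, had 26.6 FPKM in KO, 2935 in Het and 21.1 in WT Lin- cells, and its partner S100a9 had 24.4, 2934 and 17.8. For both, KO and WT were close and Het was far above them. Tmsb4x, an actin monomer binding protein abundant in all leukocytes, had 283 FPKM in KO, 712 in Het and 309.8 in WT.

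Cytoskeletal genes, the closest to the function of mDia1, gave no passing gene other than Diap1 among those the fraction limit kept. The Arp2/3 complex, which nucleates branched actin, and its activators had 18 measured genes with a median of -0.04 (0.03 after the granulocyte share was subtracted), led by Arpc3 at 297 FPKM in KO, 287 in Het and 282 in WT and Arpc2 at 117, 129 and 119.8. The 24 actin monomer, severing, capping and bundling proteins had a median of -0.06, which became 0.02 after the granulocyte share was subtracted. Actb, the beta actin gene, had 988 FPKM in KO, 1135 in Het and 1095 in WT, and Actg1, gamma actin, 396, 508 and 475. Both actins were lowest in KO and highest in Het with intervals apart, by -0.20 and -0.36 on the log2 scale. After the subtraction the Het level was 998 FPKM for Actb and 451 for Actg1, and the log2 ratios were -0.01 with overlapping intervals for Actb and -0.18 with intervals apart for Actg1. Pfn1, the profilin that feeds actin to formins, had 823 FPKM in KO, 875 in Het and 827 in WT.

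The fraction limit had left out 14 actin regulators, all with a mean FPKM of at least 1, and 3 of these were lower by the rule (median of the 14, -0.57). They were Tmsb4x, given above, the crosslinker Actn1 at 2.498 FPKM in KO, 10.4 in Het and 4.37 in WT, and the severing protein Gsn at 8.68, 18.6 and 7.36. For all 3, Het was highest and KO and WT were nearer to each other, and the part of the granulocyte share in them was not tested.

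The 12 measured genes of SRF, the MRTFs and their cytoskeletal targets had a median of -0.10, with 8 below 0. The median became -0.02 after the granulocyte share was subtracted and -0.24 with no gene left out. Tagln2, an actin-binding protein, had 156 FPKM in KO, 159.7 in Het and 159 in WT, and Tpm3, a tropomyosin, 110.5, 125 and 113. The limit had left out 9 genes of that list, and 2 of these were lower by the rule. These were Thbs1, given above, and the calponin gene Cnn2, at 17.9 FPKM in KO, 39.1 in Het and 21.0 in WT.

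Proliferation genes gave no passing member. The 46 DNA replication genes had a median of 0.00 and a range of -0.22 to 0.13, with Pcna, the polymerase clamp, at 506 FPKM in KO, 499.6 in Het and 478 in WT. The 51 mitosis and cytokinesis genes had a median of -0.03, with Mki67 at 159.8, 163 and 146 FPKM in the same order. Histone genes had a median of 0.18 over 46 genes, with 30 above 0, which became -0.05 with an FPKM limit of 10. Ribosomal protein genes had one of 0.05 over 82 genes, with 67 above 0. Their intervals were apart for 35 genes in the higher and 2 in the lower direction, against 3.79% and 4% of all measured genes, at a median level of 1722 FPKM. Both families have near-identical copies, and their single values are uncertain.

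Response genes gave no passing member among those the fraction limit kept. The 29 type I interferon response genes had a median of 0.11 and 21 above 0, with the most abundant, Ifitm2, at 206 FPKM in KO, 216 in Het and 206 in WT. The 25 heat shock genes had a median of -0.07, with 18 below 0. KO and Het intervals were apart for 12 of them in the lower and 1 in the higher direction, against 4% and 3.79% of all measured genes, at a median level of 142 FPKM. Hspa8, a constitutive chaperone, had 1730.2 FPKM in KO, 1967 in Het and 2159.5 in WT. The 24 p53 targets and BCL2 family genes had a median of 0.03, the 21 metallothionein and oxidative stress genes 0.05, the 18 glycolytic enzymes -0.05 and the 19 MHC class I genes 0.10. Immediate-early genes had a median of -0.03 over 8 genes, after 18 of 32 had been left out. The median was -0.43 with no gene left out, -0.17 with an 8-fold fraction limit and 0.06 after the granulocyte share was subtracted. Jun and Myc, their most abundant, had 103 and 88.6 FPKM in KO, 107 and 69.3 in Het, and 89.4 and 81.9 in WT.

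Smaller lists gave no passing gene among those the fraction limit kept. A median of 0.10 was found for the 8 genes of inflammatory cytokines and NF-kB feedback, and -0.08 with no gene left out. The 6 measured eosinophil, basophil and mast cell genes had a median of 0.11. With no gene left out it was -1.40, since 10 of the 13 left-out genes with a mean FPKM of at least 1 were lower by the rule (median -2.65). The median was 0.07 for the 5 sialomucins and -0.04 for the 5 sex-linked genes. Other lists had fewer than 5 measured genes after the fraction limit, and no median was taken. These were the granulocyte and monocyte lineage regulators and the B lineage genes with 4 each, the primary granule proteins and the monocyte and macrophage genes with 3 each, the globins with 2, the mature neutrophil genes with 1, and the secondary and tertiary granule proteins with 0. Cd24a, a surface sialomucin of B lineage and erythroid cells, had 473 FPKM in KO, 504 in Het and 449 in WT, and Apoe, the apolipoprotein of macrophages, 92.8, 78.6 and 68.8.

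**Figure D5:**
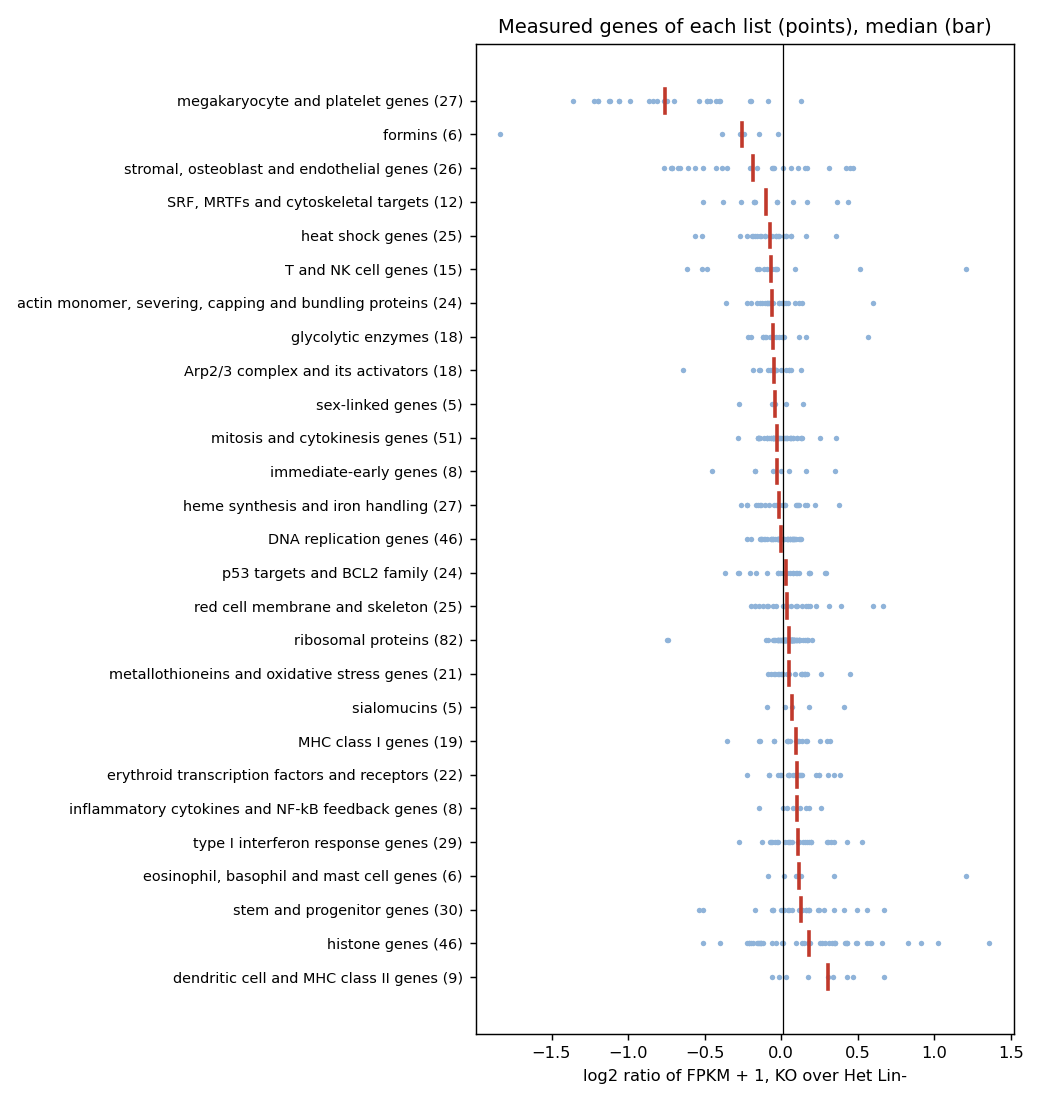
Log2 ratio of FPKM + 1, KO over Het Lin-, of each measured gene of 27 lists (blue points) with the list median (red bar), ordered from the lowest median at the top, and the number of genes in brackets. The black line is the median of all measured genes, 0.01. The megakaryocyte and platelet list has the lowest median, -0.76, and the others lie between -0.26 and 0.30.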

How the data were processed

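RNA from 2 cell fractions of 3 marrow pools was sequenced, 1 library for each genotype and fraction. The deposited values are FPKM per gene locus with lower and upper bounds and a status, per the file headers. The submitters' processing notes name TopHat2 2.0.7, Cufflinks 2.0.2 and the build mm10. Settings and annotation: not given in the sources used here. Each value depends on the library's total, and abundant transcripts lower all others. Each group is 1 library, so no test was run. The bounds were read as 2 SD either side, since 61.1% to 61.8% of implied fragment numbers under 50 were then whole within 0.05, against 7.61% to 9.02% with a normal 95% multiplier. SE values come from these bounds.

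Tables were joined on gene identifier and locus. Ratios were taken on log2(FPKM + 1) with a pseudocount of 1 in Python 3.11.15 (numpy 2.4.6, pandas 2.3.3, matplotlib 3.10.9). The rule of size was run on simulated libraries with counting noise only and known changes in well-covered genes. That run did not cover changes at the limits of the rule or the spread between mice, and its outcome is not given here. Of 1169 symbols on 35 gene lists 1153 matched, and 8 held by more than 1 locus were left out. List medians needed 5 measured genes. The values of 1 list and of some genes are not reported here. The members and lists were chosen with earlier results of these data known. Named genes are Diap1, up to 15 passing genes with the largest ratio each way, the 3 genes inside and outside each limit, passing or the 2 most abundant list members, the measured formins and the 5 left-out genes highest in Het; unnamed, duplicated, small RNA and ribosomal RNA symbols were passed over. Platelet genes are given more fully, and genes picked later are marked. Alternatives were other pseudocounts, level, fold, interval and fraction limits, rescaling, subtraction of the granulocyte share, leaving out multicopy genes and, chosen after seeing the data, WT Lin- in place of Het Lin-.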

Additional observations from a re-analysis of the deposited data

Results flagged for a closer look

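The small nucleolar RNA gene Snora21 (chromosome 11, 97781639 to 97781766) went opposite ways in the 2 fractions. In Lin- cells it was listed at 0 in KO, with 103 FPKM in Het and 14.1 in WT. In Gr1+Mac1+ cells it had 102 FPKM in KO, was listed at 0 in Het and had 37.5 FPKM in WT. The log2 ratio of FPKM + 1 for KO over Het was -6.70 in Lin- cells and 6.68 in Gr1+Mac1+ cells. These ratios depend on the pseudocount, since 1 library of each pair is at 0, and the difference was not tested with 1 library a group.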

How the results depend on the processing

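Counts of genes past the rule of size depended on its limits. The 4 genes higher and 15 lower in KO became 2 and 6 with a pseudocount of 5, 10 and 27 with an FPKM limit of 1 or with no level filter, 2 and 3 at 3-fold, and 35 and 45 without the interval criterion. With no gene left out for the Gr1+Mac1+ fraction they became 10 and 127. They became 10 and 16 with an 8-fold fraction limit, 10 and 13 with one taken from the KO libraries, 2 and 10 with an FPKM limit of 10, and 2 and 13 without multicopy genes. With WT Lin- in place of Het Lin-, an alternative chosen after seeing the data, KO had 7 genes higher and 4 lower over all kept genes, and 1 of these 11 was shared with the 19 calls against Het; the cause was not tested. After the granulocyte share was subtracted, 17 of the 19 calls were kept.

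The Diap1 log2 ratio of -1.84 became -1.98 and -1.40 with pseudocounts of 0.1 and 5, and -2.39 against WT. The megakaryocyte median of -0.76 became -0.47 with a pseudocount of 5 and -0.29 against WT, and lay between -0.81 and -0.74 otherwise. Of 354 list medians recomputed, 318 moved by less than the median counting SE of single genes on the list, and 36 moved further. That is a wide limit for a median, and some of the 318 changed sign. A sign change was seen in 19, over 12 lists, 10 of them with WT in place of Het. The medians of these 12 lists had been under 0.2 in size. Each group is 1 library, so the spread between mice is unknown and no gene can be called changed by the genotype. No paired analysis was possible because KO and Het come from different marrow pools with 1 library each in a fraction, so the comparison shares no replicate.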

Other observations

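Genes of 2 ribosomal proteins lay far from the rest of their family. Rps27 had 352 FPKM in KO, 593 in Het and 4.63 in WT Lin- cells, and Rpl26 had 109, 183 and 143 in the same order. Both have near-identical copies, and their values are uncertain. Hspb1 and Serpinh1, heat shock proteins of which the second is a collagen chaperone, had 10.6 and 6.17 FPKM in KO, 16.2 and 9.29 in Het, and 6.20 and 4.62 in WT Lin- cells, the order of the type I collagen genes.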
